A study of Homo sapiens with 15 samples.

Results

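The BCL2 family proteins decide whether the outer membrane of the mitochondrion stays closed or is opened, and 10 of their genes are described here: BCL2L1, MCL1, BAX, BAK1, BBC3, PMAIP1, BCL2L11, BID, BAD and BIK. They were taken by symbol from a table of RNA sequencing read counts, where all 10 were found among 19143 gene rows. The counts come from 15 libraries in 5 groups of 3, all made from MHCC-97H, an established cell line of human liver cancer (hepatocellular carcinoma). A first round of sequencing covered the cells in 2D, 3D and animal models, and a second round covered the 3D model with and without heat treatment, called 3D heat and 3D control below. No group carries a stated genetic change, and the labels give neither the temperature or length of heating, nor the host of the animal model or any age. The series title places the study in work on heat resistance under mechanical confinement, and the first round asks how the culture models differ while the second asks what heating changes.

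The family has 3 kinds of members. Survival proteins such as BCL-XL (gene BCL2L1) and MCL1 hold the effectors BAX and BAK (gene BAK1) in check. When the effectors are released they form pores in the mitochondrial outer membrane, cytochrome c escapes and caspases are activated. The BH3-only proteins are the sensors: PUMA (gene BBC3), NOXA (gene PMAIP1), BIM (gene BCL2L11), BID, BAD and BIK bind the survival proteins, and some of them also engage the effectors directly. Hepatocytes are known to depend on BCL-XL and MCL1 together, and high levels of these survival proteins are common in liver cancer. Much of the regulation of the family acts on the proteins, which read counts do not show.

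The libraries held 12605539 to 18634295 counted reads. The smallest count of any member in any library was 16 reads, for BIK, and the largest was 16440, for MCL1, so every member was measured in all 15 libraries. Levels are in CPM, counts set to a common library total and scaled across the 15 libraries. In 3 libraries, 3D replicates 1 and 2 and 3D heat replicate 1, the departure from the 2D libraries followed transcript GC content across genes, with rank correlations of 0.597 to 0.797 against -0.195 to 0.228 in the other 12. The same 3 libraries also followed transcript length, with rank correlations of -0.467 to -0.413 against -0.146 to 0.263 in the other 12. Their share of mitochondrial transcripts was 1.31 to 4.57%, where the others had 4.52 to 11.3%. Member results and list counts that rest on these libraries are given with and without them. Without 3D replicates 1 and 2 the 3D group is 1 library, so the spread in that fit comes from the 2D and animal libraries. Pairs of 3D libraries differed far more, at a chi-square per degree of freedom of 68.3 to 429 against 2.46 to 31.1 within those groups. Adjusted p-values and calls with 3D replicate 3 alone therefore do not measure the spread between 3D libraries.

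The members divided in the same way. Against 3D replicate 3, the mean of 3D replicates 1 and 2 was higher for BAD by 2.12 on the log2 scale, for BAK1 by 1.95, for BAX by 1.89 and for BCL2L1 by 1.52, whose transcripts have 56.9 to 66.3% GC. For the AT-rich transcripts the log2 ratio was -1.83 for PMAIP1 (37.2% GC), -0.92 for MCL1 (45.1%) and -0.46 for BCL2L11 (45.7%). Heat replicate 1 against heat replicates 2 and 3 gave 2.86 for BAD and -1.28 for MCL1. Over the 10 members the rank correlation of this ratio with GC content was 0.73 in 3D and 0.82 with heat, a description over genes that share the same libraries. BBC3, with the highest GC content at 69.7%, lay below the trend, at 0.97 and 1.37. The part of GC content in any single change was not tested beyond the corrected fits given below.

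**Figure D1:**
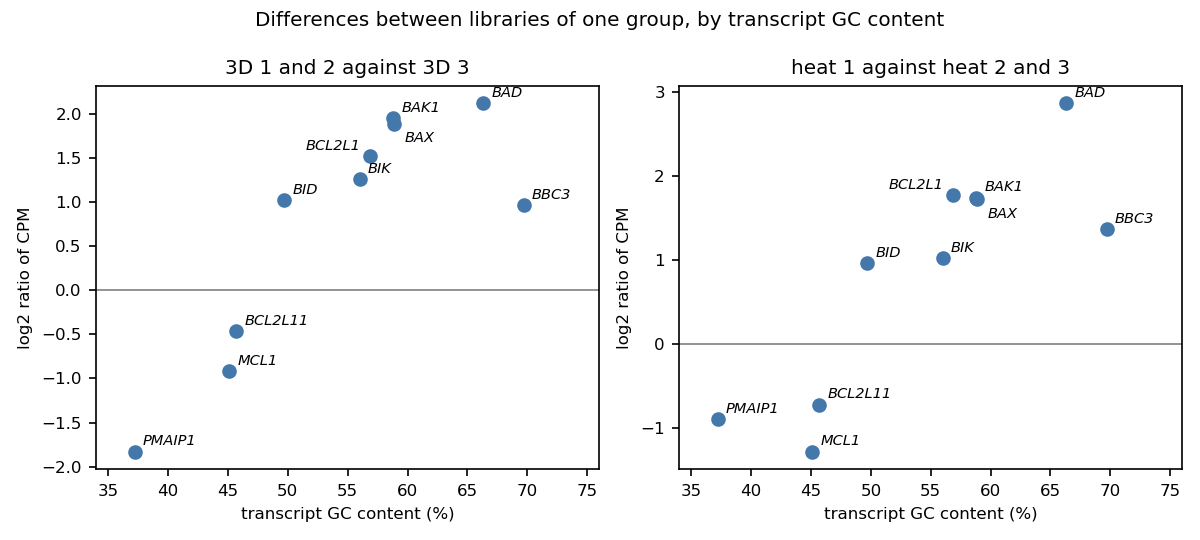
Log2 ratio of CPM between libraries of the same group (y axis) against the GC content of each member's transcript in percent (x axis), for 3D replicates 1 and 2 against 3D replicate 3 (left) and heat replicate 1 against heat replicates 2 and 3 (right). PMAIP1, MCL1 and BCL2L11 lie below 0 in both panels, at -1.83 to -0.46 on the left, and the 7 GC-richer members lie above it.

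The promoters of 4 of the genes with changes described below are shown. They are PMAIP1 and BCL2L11, which were higher with heat in the libraries without the GC trend, BBC3, which was higher in 3D, and BAX, whose ratio to BCL2L1 differed between groups. Each line gives the 250 bases before the RefSeq start site on GRCh38.p14, 5′ to 3′ on the strand of the gene. Capitals mark the GC box GGGCGG, the core of sites bound by SP1, which is named in the series title, and the E box CACGTG, each searched on both strands. The positions are chr18:59899746-59899995 (plus strand), chr2:111120664-111120913 (plus), chr19:47232668-47232917 (minus) and chr19:48954625-48954874 (plus).
PMAIP1: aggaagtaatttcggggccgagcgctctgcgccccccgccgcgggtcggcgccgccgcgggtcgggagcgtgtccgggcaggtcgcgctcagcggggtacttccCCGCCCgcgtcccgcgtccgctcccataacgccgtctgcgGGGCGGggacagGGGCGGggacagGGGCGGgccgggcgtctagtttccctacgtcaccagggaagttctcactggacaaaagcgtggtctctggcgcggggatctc
BCL2L11: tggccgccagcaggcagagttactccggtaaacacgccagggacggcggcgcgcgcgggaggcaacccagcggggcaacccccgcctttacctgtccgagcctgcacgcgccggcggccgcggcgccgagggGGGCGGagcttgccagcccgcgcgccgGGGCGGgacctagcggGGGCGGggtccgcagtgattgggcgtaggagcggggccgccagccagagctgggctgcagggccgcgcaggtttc
BBC3: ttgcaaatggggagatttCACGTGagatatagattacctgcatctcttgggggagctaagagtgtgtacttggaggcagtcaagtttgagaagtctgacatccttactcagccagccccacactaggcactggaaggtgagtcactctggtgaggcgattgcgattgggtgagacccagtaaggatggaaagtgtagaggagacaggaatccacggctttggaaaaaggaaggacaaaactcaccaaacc
BAX: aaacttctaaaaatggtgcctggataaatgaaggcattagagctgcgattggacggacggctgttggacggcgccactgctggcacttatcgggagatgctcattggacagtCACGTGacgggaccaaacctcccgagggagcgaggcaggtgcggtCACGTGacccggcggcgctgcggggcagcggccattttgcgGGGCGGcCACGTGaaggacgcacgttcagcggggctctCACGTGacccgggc
The PMAIP1 window held 4 GC boxes and that of BCL2L11 held 3. A GC box was found in 42.6% of 35116 promoters of this length, and 3 or more in 13.88%. The BBC3 window held no GC box and 1 E box. The BAX window held 1 GC box and 4 E boxes, where 6.3% of promoters held any E box and 0.08% held 3 or more. The heat shock element GAANNTTC, found in 5.8% of promoters, was in none of these 4 windows and 1 time in that of BAK1, where it reads GAAACTTC at -226 to -219 from the start site. BCL2L1 and BID, which also have changes described below, are not shown. The windows at the 2 BCL2L1 start sites held none of the 3 motifs. Those at the 5 BID start sites held 0 to 4 GC boxes and at most 1 E box. These matches describe letters in a window and say nothing of binding.

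In the 2D libraries the survival genes and BAX stood far above the sensors. Per kilobase of transcript, mean levels were 107 CPM for MCL1, 89.9 for BCL2L1, 81.1 for BAX, 28.9 for BAD, 22.1 for BID, 11.3 for PMAIP1, 10.5 for BAK1, 8.45 for BBC3, 4.64 for BCL2L11 and 2.75 for BIK (n = 3). Neighbours in this order did not overlap between libraries, apart from BCL2L1 and BAX. The 3D controls of the second round had MCL1 (105 CPM per kilobase), BCL2L1 (91.9) and BAX (63.8) in the same first places, and BIK, at 5.48, was last again, though its libraries overlapped those of BCL2L11. In the animal libraries MCL1 led at 120, above BCL2L1 at 64.4 and BAX at 46.3, and BCL2L11 was last at 8.10. In the 3D and heat groups most neighbours overlapped, since the libraries of these groups differed so much among themselves.

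**Figure D2:**
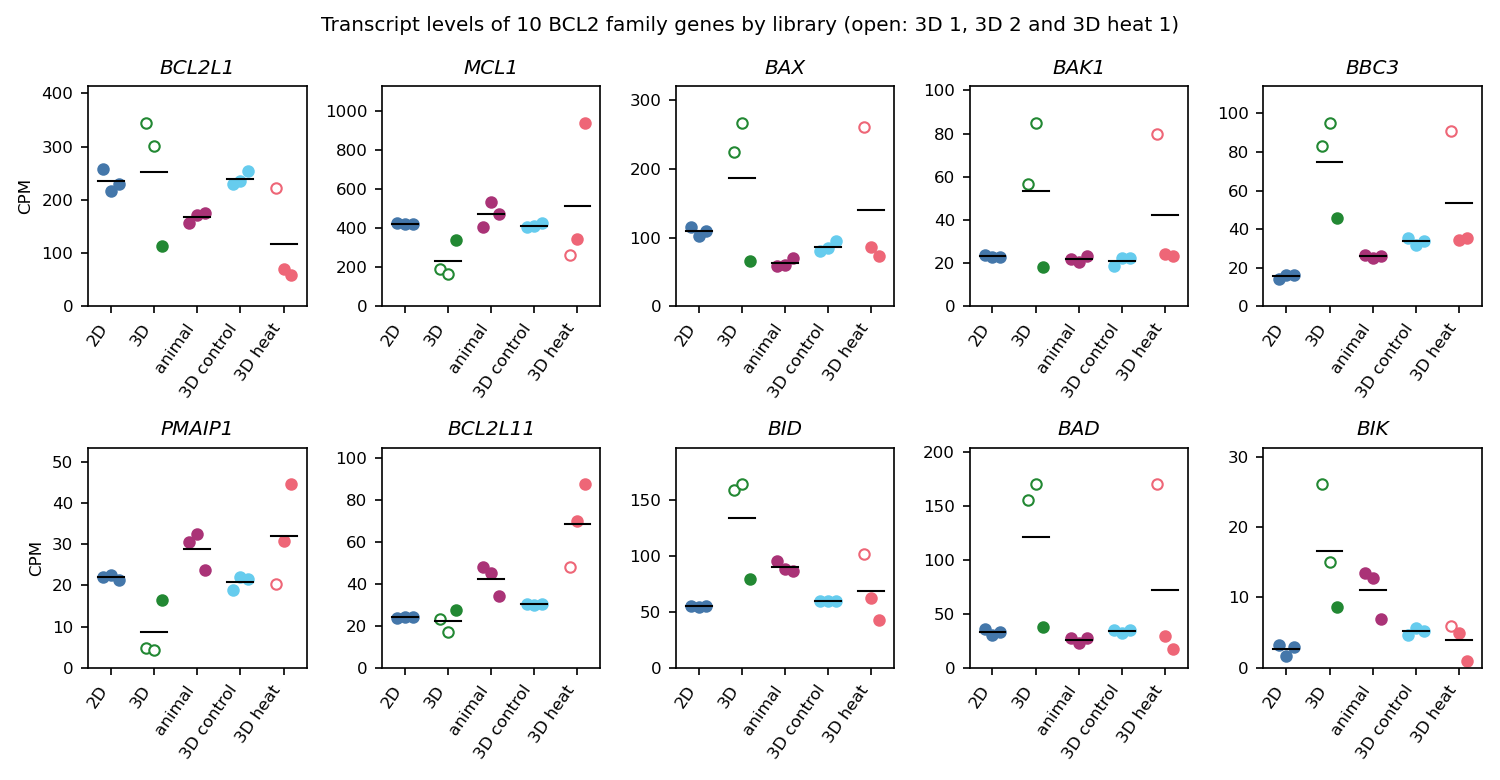
Level of each member in CPM (y axis, from 0, on a scale of its own per gene) in the 15 libraries by group; each circle is a library, open circles are 3D replicates 1 and 2 and heat replicate 1, and black lines are group means (n = 3). BBC3 is higher in every 3D library (45.6 to 95.1 CPM) than in every 2D library (14.0 to 16.4).

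Of the 10 members, 4 were higher and 1 was lower in 3D than in 2D (edgeR adjusted p below 0.05), where 20.0% of 12925 tested genes were higher and 12.9% lower. The higher members were all BH3-only genes, BBC3, BIK, BID and BAD, and the lower one was MCL1. The median log2 fold change of the members was 0.93, against 0.03 for all tested genes. By kind it was -0.41 for the 2 survival genes, 0.93 for the 2 effectors and 1.52 for the 6 BH3-only genes. With 3D replicate 3 alone these 3 medians were -0.69, -0.54 and 0.35, against 0.01 for all tested genes. Without 3D replicates 1 and 2, with 22.9% of 13604 tested genes higher and 23.6% lower, BBC3, BIK and BID stayed higher and BCL2L1 and BAX were lower. In animal against 2D, only BIK was called, higher, beside 7.78% of genes higher and 4.25% lower. In animal against 3D, 3 members were higher (MCL1, PMAIP1 and BCL2L11) and 4 lower (BAX, BAK1, BBC3 and BAD), beside 18.6% and 22.9% of genes. Without 3D replicates 1 and 2 these shares of genes were 24.6% and 22.5%, and 4 members were higher (BCL2L1, MCL1, PMAIP1 and BCL2L11) and 2 lower (BBC3 and BAD). The first 3 comparisons share libraries, so the calls in them are not independent.

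In heat against control no member was called by edgeR, where 0.00792% of 12627 tested genes were higher and 0.0158% lower. At an unadjusted p below 0.05 there was 1 member, BCL2L11, higher, beside 11.8% of genes higher and 8.97% lower. DESeq2 called the same 1, beside 6.74% of genes higher and 5.46% lower, so these counts are near the shares of all genes. Without heat replicate 1, with 14.0% of 12830 genes higher and 14.8% lower, BCL2L11 and PMAIP1 were higher and BCL2L1 was lower.

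**Figure D3:**
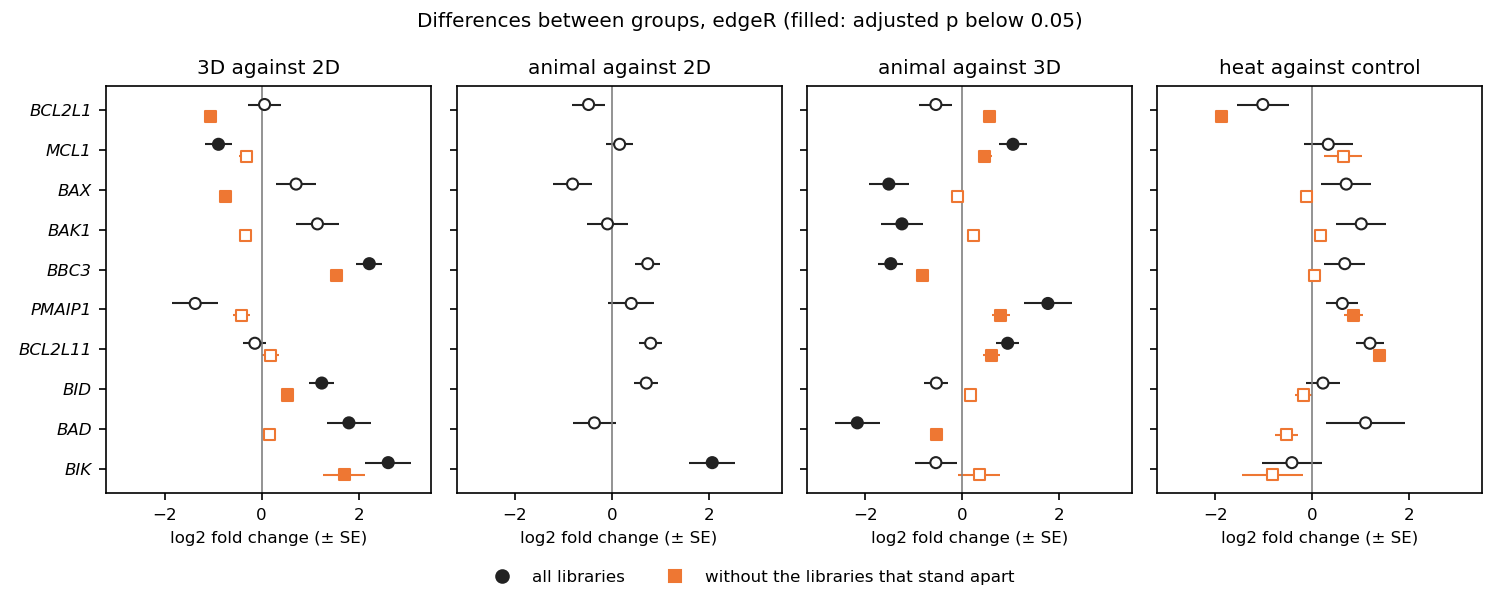
Log2 fold change (x axis, with bars of 1 SE) of each member in the 4 comparisons, from all libraries (black circles) and without 3D replicates 1 and 2 or heat replicate 1 (orange squares; none for animal against 2D, which uses none of these); filled symbols have an adjusted p below 0.05 in edgeR. BBC3, BID and BIK are filled and to the right of 0 with and without those libraries in 3D against 2D, whereas BAD is filled only with them.

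BCL2L1, the gene of the survival protein BCL-XL, changed direction between 3D and 2D with the libraries counted. It measured 258, 216 and 230 CPM in 2D and 345, 301 and 113 in 3D. Thus 3D replicates 1 and 2 lay above all 2D libraries and 3D replicate 3 lay below them. The log2 fold change was 0.06 (SE 0.34, adjusted p = 0.899) with all libraries and -1.06 with 3D replicate 3 alone. After a correction for GC content and transcript length, with all libraries in, it was -0.72 (adjusted p = 0.0252). The animal libraries had 157, 172 and 175 CPM, all below the 2D libraries, at a log2 fold change of -0.48 (SE 0.34, adjusted p = 0.427). Against 3D replicate 3 alone BCL2L1 was higher in the animal libraries, by 0.56, and against all 3D libraries the value was -0.54 (adjusted p = 0.215).

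With heat BCL2L1 showed the largest fall among the members once heat replicate 1 was left out. The 3D controls had 230, 235 and 255 CPM and the heated libraries 222, 70.7 and 59.8. All heated libraries lay below all controls, with heat replicate 1 close to them. The log2 fold change was -1.02 (SE 0.53, adjusted p = 0.309), -1.88 (SE 0.13, adjusted p = 0.00428) without heat replicate 1, and -1.40 (adjusted p = 0.0395) after the GC and length correction. Of the BCL2L1 exon bases, 43.0% lie opposite the noncoding gene ABALON in GENCODE 29, which has no row of its own in the count table. The library protocol describes no step that marks strand and the strand setting of the counting is not stated, so reads of the 2 genes cannot be told apart.

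MCL1, the short-lived survival protein, was more abundant per kilobase than BCL2L1 in the mean of every group apart from 3D. It measured 424, 420 and 419 CPM in 2D, 191, 165 and 338 in 3D and 405, 536 and 472 in the animal libraries. All 3D libraries lay below all others of the first round, and animal against 2D gave 0.16 (SE 0.28, adjusted p = 0.782). The MCL1 level fell 1.85-fold from 2D to 3D (log2 fold change -0.89, SE 0.28, adjusted p = 0.0409). This call ended without any one of the 2D libraries or without 3D replicate 1 or 2 (adjusted p 0.0908 to 0.135), without both of the latter (-0.32, adjusted p = 0.108), with upper-quartile scaling (-0.90, adjusted p = 0.0632) and after the correction (-0.52, adjusted p = 0.0546). The animal model exceeded 3D 2.07-fold in MCL1 (adjusted p = 0.0188), and 0.47 higher on the log2 scale against 3D replicate 3 alone (adjusted p = 0.0335). That call ended when 3D replicate 1 or either of animal replicates 2 and 3 was left out (adjusted p 0.0529 to 0.0726).

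MCL1 spread more widely in the heated libraries than in the other groups. These had 264, 343 and 939 CPM against 404, 410 and 426 in the controls. Heat replicates 1 and 2 lay below all controls and heat replicate 3 far above them. The log2 fold change was 0.33 (SE 0.51, adjusted p = 0.740), and it was -0.44 without heat replicate 3.

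The effectors BAX and BAK1, which form the pores, were high in the 3 libraries with the GC trend. BAX measured 116, 103 and 110 CPM in 2D, 225, 267 and 66.3 in 3D and 59.0, 59.6 and 70.0 in the animal libraries. 3D replicates 1 and 2 were at about the level of heat replicate 1, and 3D replicate 3 was within the range of the animal libraries. For BAX the difference between 3D and 2D was 0.71 on the log2 scale (SE 0.41, adjusted p = 0.201). With 3D replicate 3 alone BAX was lower than in 2D (-0.74, adjusted p = 0.00299), as it was after the correction (-0.62, adjusted p = 0.0137). Every animal library lay below every 2D library, at -0.81 (SE 0.41, adjusted p = 0.250), and this difference was called after the correction (-0.90, adjusted p = 0.00274). BAX was 2.86-fold lower in the animal libraries than in all 3D libraries (adjusted p = 0.0195). Against 3D replicate 3 alone the difference was -0.09 (adjusted p = 0.584), and it was -0.28 after the correction (adjusted p = 0.162). That call also ended without 3D replicate 1, 3D replicate 2 or any one of the animal libraries (adjusted p 0.0526 to 0.0681).

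BAK1 was the rarer effector. Its transcript had 24.0, 22.7 and 22.7 CPM in 2D, 56.5, 85.0 and 18.3 in 3D and 21.9, 20.4 and 23.1 in the animal libraries. Only 3D replicates 1 and 2 stood above the rest, and animal against 2D gave -0.09 (SE 0.43, adjusted p = 0.931). Between 3D and 2D the BAK1 difference was 1.15 on the log2 scale (adjusted p = 0.0715) and -0.34 with 3D replicate 3 alone (adjusted p = 0.0563). It was 2.35-fold lower in animal than in 3D (adjusted p = 0.0487), a call that ended without any one of the animal libraries, without 3D replicate 1 or 2 (adjusted p 0.107 to 0.157), with upper-quartile scaling or no filter (adjusted p = 0.0623 and 0.0515), and after the correction (-0.10, adjusted p = 0.714). With 3D replicate 3 alone that difference was 0.24 (adjusted p = 0.154), and with the correction as well it was 0.45 in the other direction (adjusted p = 0.0183). With heat neither effector was called: BAX had 261, 85.7 and 73.1 CPM against 80.2, 85.1 and 94.4 in the controls, and BAK1 had 79.6, 24.2 and 23.3 against 18.8, 22.2 and 22.4. For BAX, heat replicate 2 lay among the controls and replicate 3 below them, and for BAK1 both lay just above them. With all libraries the log2 fold changes were 0.70 for BAX (adjusted p = 0.449) and 1.01 for BAK1 (adjusted p = 0.307). Without heat replicate 1 the log2 fold changes were -0.12 for BAX (adjusted p = 0.484) and 0.17 for BAK1 (adjusted p = 0.358).

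BBC3, which encodes PUMA, a sensor that binds all the survival proteins, had the smallest adjusted p of the members. It rose from 14.0, 16.2 and 16.4 CPM in 2D to 82.9, 95.1 and 45.6 in 3D. Every 3D library lay above every 2D library. BBC3 was 4.65-fold higher in 3D (log2 fold change 2.22, SE 0.27, adjusted p = 0.00133) and was called under all 14 alternatives tried, at 0.92 to 2.45. It was 1.55 (adjusted p = 0.000117) without 3D replicates 1 and 2 and 0.92 (adjusted p = 0.00315) after the correction. The animal libraries had 26.8, 25.2 and 26.1 CPM, between the 2D and the 3D libraries. They differed from 2D by 0.74 (SE 0.26, adjusted p = 0.102), a difference that was called after the correction (1.17, adjusted p = 0.00107). BBC3 was 2.77-fold lower in animal than in 3D (adjusted p = 0.00347), also against 3D replicate 3 alone (-0.82, adjusted p = 0.00131), but after the correction the difference was 0.25 (adjusted p = 0.232). With heat BBC3 had 90.8, 34.5 and 35.6 CPM against 35.6, 32.0 and 34.1, so that only heat replicate 1 stood out (0.67, adjusted p = 0.389, and 0.05 without it, adjusted p = 0.744).

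BIK, a BH3-only protein of the endoplasmic reticulum, was the rarest member in 2D and had the largest fold change in 3D. It measured 3.25, 1.69 and 2.94 CPM in 2D, from 32 to 61 reads, and 26.1, 15.1 and 8.59 CPM in 3D. All 3D libraries and all animal libraries, at 13.5, 12.8 and 6.91 CPM, lay above all 2D libraries. From 2D to 3D the BIK level rose 6.10-fold (log2 fold change 2.61, SE 0.47, adjusted p = 0.00545), and it was called under all 14 alternatives, at 1.43 to 2.90. In the animal libraries it was 4.21-fold above 2D (SE 0.47 on the log2 scale, adjusted p = 0.0217). That call ended when any 2D library or either of animal replicates 1 and 2 was left out (adjusted p 0.0631 to 0.0975), and held after the correction (1.83, adjusted p = 0.00645). Between animal and 3D, BIK had a log2 fold change of -0.54 (SE 0.44, adjusted p = 0.336). The heated libraries had 5.92, 4.94 and 0.913 CPM against 4.73, 5.67 and 5.28 in the controls, so heat replicate 3 alone was low, with 16 reads (-0.42, SE 0.62, adjusted p = 0.727).

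BID, which links death receptors to mitochondria after caspase 8 cuts it, rose in 3D as well. It had 55.4, 54.4 and 55.4 CPM in 2D, 159, 164 and 79.6 in 3D and 95.6, 87.9 and 86.8 in the animal libraries. Every 3D and every animal library lay above every 2D library. From 2D to 3D the BID level rose 2.36-fold (log2 fold change 1.24, SE 0.26, adjusted p = 0.00828) and was called under all 14 alternatives. The smallest value was 0.53, with 3D replicate 3 alone (adjusted p = 0.00238). Animal against 2D gave 0.71 (SE 0.25, adjusted p = 0.108), called with upper-quartile scaling (0.78, adjusted p = 0.0461) and after the correction (0.71, adjusted p = 0.0104). Animal against 3D gave -0.53 (SE 0.25, adjusted p = 0.114), and 0.17 with 3D replicate 3 alone (adjusted p = 0.171). With heat BID had 102, 62.3 and 42.6 CPM against 59.5 in each of the 3 controls, on either side of them (0.22, adjusted p = 0.742).

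BAD, the sensor that growth factor signalling switches off by phosphorylation, was called higher in 3D with all libraries but not without 3D replicates 1 and 2 together. It had 35.9, 30.8 and 33.6 CPM in 2D and 155, 170 and 37.4 in 3D. 3D replicate 3 lay just above the 2D libraries. BAD was 3.48-fold higher in 3D (log2 fold change 1.80, SE 0.46, adjusted p = 0.0181), but the value was 0.16 (adjusted p = 0.381) with 3D replicate 3 alone and 0.13 (adjusted p = 0.604) after the correction, and the call also ended without 3D replicate 1 or any one of the 2D libraries (adjusted p 0.0625 to 0.0735). The animal libraries had 27.2, 23.3 and 27.7 CPM, all below 2D (-0.36, adjusted p = 0.682). BAD was 4.47-fold lower in animal than in 3D (adjusted p = 0.00739), and lower by 0.53 on the log2 scale against 3D replicate 3 alone (adjusted p = 0.0143), but not called after the correction (-0.35, adjusted p = 0.126). With heat it had 170, 29.3 and 17.6 CPM against 34.6, 32.0 and 35.2, with heat replicates 2 and 3 below the controls (1.10, adjusted p = 0.455, and -0.53 without replicate 1, adjusted p = 0.123). In GENCODE 29, 23.7% of the BAD exon bases lie opposite GPR137, which has its own row, so the split of reads between these genes is uncertain.

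PMAIP1, which encodes NOXA, the sensor that binds MCL1 and leaves BCL-XL largely free, went the other way in 3D. It had 22.1, 22.6 and 21.3 CPM in 2D and 4.81, 4.44 and 16.5 in 3D, from 61 to 268 reads. All 3D libraries lay below all 2D libraries, replicates 1 and 2 by far the most. The log2 fold change was -1.37 (SE 0.48, adjusted p = 0.0570). It was called by DESeq2 (-1.34, adjusted p = 0.0120) and after the correction (-0.76, adjusted p = 0.0289), but not with 3D replicate 3 alone (-0.42, adjusted p = 0.0923). The animal libraries had 30.4, 32.5 and 23.8 CPM, all above the 2D libraries (0.40, adjusted p = 0.667). PMAIP1 was 3.40-fold higher in animal than in 3D (adjusted p = 0.0202) and higher by 0.80 on the log2 scale against 3D replicate 3 alone (adjusted p = 0.00934). That call ended when 3D replicate 1 or either of animal replicates 1 and 2 was left out (adjusted p 0.0562 to 0.0712).

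BCL2L11, which encodes BIM, a sensor that binds every survival protein and can engage BAX, did not pass the test between 3D and 2D (-0.14, SE 0.24, adjusted p = 0.679). It had 24.0, 24.5 and 24.3 CPM in 2D, 23.1, 17.0 and 27.6 in 3D and 48.0, 45.1 and 34.1 in the animal libraries. The animal libraries lay above all the others of the first round. BCL2L11 was 1.92-fold higher in animal than in 3D (log2 fold change 0.94, SE 0.24, adjusted p = 0.0153) and stayed so against 3D replicate 3 alone (0.61, adjusted p = 0.0286), though not without animal replicate 1 (0.85, adjusted p = 0.0595). Against 2D the value was 0.80 (SE 0.24, adjusted p = 0.0634), called by DESeq2 (0.78, adjusted p = 0.00720) and after the correction (0.91, adjusted p = 0.00356). Of its exon bases, 10.9% lie opposite the noncoding gene MIR4435-2HG, which has no row of its own, so reads there cannot be assigned.

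With heat the same pair, BCL2L11 and PMAIP1, were the members called higher without heat replicate 1. BCL2L11 had 30.4, 29.8 and 30.7 CPM in the controls and 48.0, 70.1 and 87.7 in the heated libraries. Every heated library was above every control, the lowest being heat replicate 1. The log2 fold change was 1.19 (SE 0.29, adjusted p = 0.116 in edgeR), with an adjusted p of 0.00291 in DESeq2, 0.0130 after the correction (1.37) and 0.00464 without heat replicate 1 (1.38). It was 0.444 to 0.467 without any one of the controls, where edgeR called no gene of the whole table. PMAIP1 had 18.9, 21.9 and 21.6 CPM in the controls and 20.4, 30.7 and 44.5 with heat. Heat replicate 1 lay among the controls and the other heated libraries above them. Its log2 fold change was 0.62 (SE 0.33, adjusted p = 0.319), and 0.85 (SE 0.19, adjusted p = 0.0261) without heat replicate 1. After the correction PMAIP1 was not called (0.58, adjusted p = 0.0903). The correction without heat replicate 1 did not call it either (0.59, adjusted p = 0.0597).

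Ratios of a pair of members within a library do not use the scaling between libraries. BAX and BCL2L1, an effector and a survival gene that restrains it, also have similar GC content, at 58.9 and 56.9%. They are not matched in transcript length, at 1358 and 2610 bases. Per kilobase, reads of BAX per read of BCL2L1 were 0.868, 0.919 and 0.925 in 2D, 1.25, 1.71 and 1.13 in 3D and 0.720, 0.667 and 0.769 in the animal libraries. All 3D libraries, replicate 3 included, lay above all 2D libraries, and all animal libraries lay below them. The ratios were 0.670, 0.697 and 0.713 in the 3D controls and 2.26, 2.33 and 2.35 with heat. The 3D controls of the second round thus lay below all 2D libraries, unlike the 3D libraries of the first round. The 3 heated libraries, which differed so much in either gene alone, had a mean of 2.31 ± 0.0471 (SD, n = 3), against 0.693 ± 0.0217 in the controls. As a difference of the fitted log2 fold changes, this was 1.72, and it lay between 1.44 and 1.83 under the alternatives. For 3D against 2D the same difference was 0.64 with all libraries, 0.32 with 3D replicate 3 alone and 0.11 after the correction. These are descriptions without a test.

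BAK1 per BCL2L1 was lower throughout. The ratio was 0.110 to 0.124 in 2D, 0.191 to 0.333 in 3D, 0.140 to 0.164 in the animal libraries, 0.0965 to 0.112 in the 3D controls and 0.405 to 0.460 with heat. The 3D libraries again lay wholly above 2D and the heated ones above the controls, but here the animal libraries also lay above 2D. The 3D controls overlapped the 2D libraries. BCL2L11 per BCL2L1, which differ in GC content (45.7 and 56.9%), was 0.0601 to 0.0659 in the controls and 0.108, 0.495 and 0.732 with heat, lowest in heat replicate 1. The ratio of the survival genes, MCL1 per BCL2L1, was 1.11 to 1.16 in the controls and 0.788, 3.22 and 10.4 with heat, on either side of the controls. PMAIP1 per MCL1, the sensor and its main partner, was 0.0944 to 0.108 in the controls and 0.156, 0.181 and 0.0958 with heat, so that heat replicate 3, with the most MCL1 and the most PMAIP1, had a ratio at control level.

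**Figure D4:**
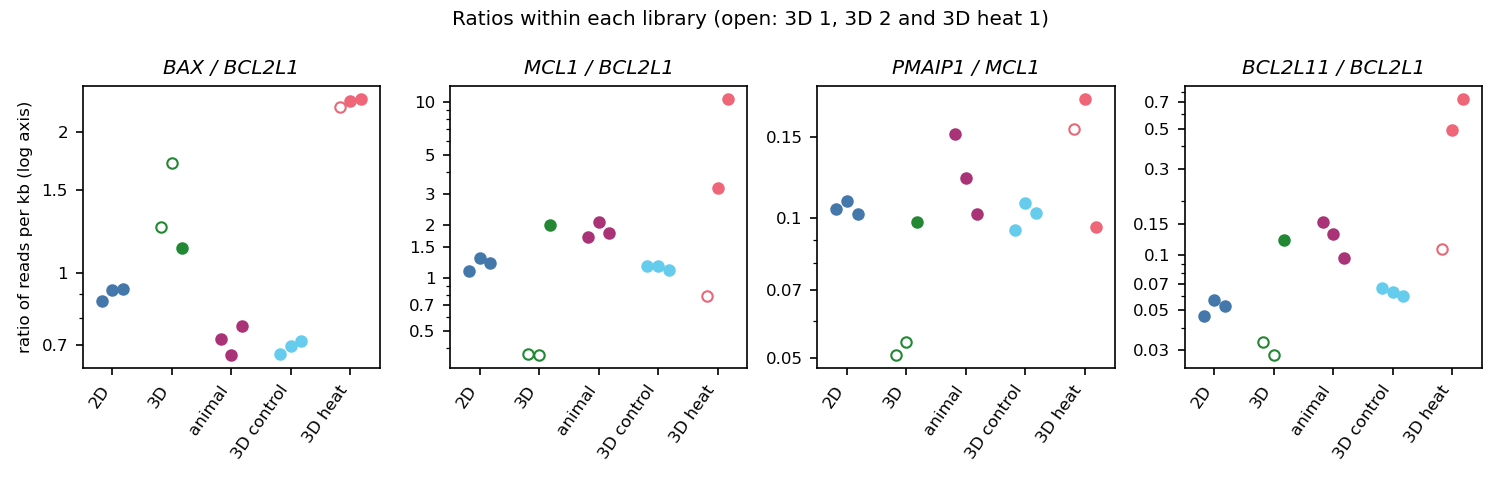
Ratio of reads per kilobase between pairs of members within each library (y axis, log scale) by group; each circle is a library and open circles are 3D replicates 1 and 2 and heat replicate 1. For BAX per BCL2L1 the heated libraries lie together at 2.26 to 2.35, above the controls at 0.670 to 0.713, with the open circle beside the filled ones.

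The 3D controls of the second round are set beside the 2D libraries of the first without a test, since round and culture cannot be told apart. Mean levels in controls and in 2D were 240 and 235 CPM for BCL2L1, 413 and 421 for MCL1, 20.8 and 22.0 for PMAIP1 and 33.9 and 33.4 for BAD. Every control library lay above every 2D library for BBC3 (32.0 to 35.6 against 14.0 to 16.4 CPM), BIK (4.73 to 5.67 against 1.69 to 3.25), BCL2L11 (29.8 to 30.7 against 24.0 to 24.5) and BID (59.5 against at most 55.4). BAX lay below 2D in every control, at 80.2 to 94.4 against 103 to 116 CPM, and so did BAK1, at 18.8 to 22.4 against 22.7 to 24.0. The share of all genes that separate in this way was not counted, so the separation cannot be read as particular to the members.

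The other genes of the pathway were read from lists chosen for their known roles. Counts over these lists stand beside the shares of all tested genes called higher and lower. These were 20.0% and 12.9% in 3D against 2D, 7.78% and 4.25% in animal against 2D and 18.6% and 22.9% in animal against 3D. In 3D against 2D, of 10 tested further family members 1 was higher, the mitophagy receptor BNIP3 (131 against 51.8 CPM, adjusted p = 0.0340), and 1 was lower, the survival gene BCL2 (0.603 against 2.55 CPM, adjusted p = 0.00639). Both were also called with 3D replicate 3 alone. Among 15 apoptosome and caspase genes, CASP10 was higher (log2 fold change 1.28, adjusted p = 0.00848) and CYCS, cytochrome c, lower (-1.32, adjusted p = 0.00557). The 8 genes listed as caspase inhibitors include XAF1, a binder of XIAP that is not itself an inhibitor. Of the 8, BIRC7 was higher, at 4.34 against 0.460 CPM, and BIRC6 and XIAP, the direct inhibitor of caspases, were lower by 1.47 and 1.45 on the log2 scale. These too held with 3D replicate 3 alone, where XIAP was lower by 0.74 (adjusted p = 0.00500).

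Of 11 tested death receptor genes, 5 were higher in 3D and 1 lower. TRADD, an adaptor of the TNF receptor, had 65.4 against 18.9 CPM (adjusted p = 0.00338), TNFSF10, the ligand TRAIL, had 6.17 against 0.903 (adjusted p = 0.00639) and its receptor TNFRSF10B had 209 against 103 (adjusted p = 0.0129), while the other receptor TNFRSF10A was the lower one. Of 21 tested genes of the DNA damage response, 4 were higher and 3 lower. TIGAR (-1.38, adjusted p = 0.00520), GADD45A (-1.07, adjusted p = 0.00634) and ZMAT3 (-1.74, adjusted p = 0.00737) fell, and TNFRSF10B, which stands on both lists, rose. Among 12 genes for mitochondrial partners and protein stability only BAG6 was called, higher, and not with 3D replicate 3 alone (0.09, adjusted p = 0.492). Among 9 tested transcription factors and cofactors of BH3-only genes only TRIB3, a pseudokinase of the stress response, was called, higher (811 against 282 CPM, adjusted p = 0.00671). The median log2 fold change of these lists ran from -0.39 for the caspase inhibitors to 0.44 for the death receptor genes. Without 3D replicates 1 and 2 the median of the caspase inhibitors was 0.68, with 5 higher and 3 lower, BIRC2 (0.59, adjusted p = 0.00174) and BIRC3 (1.69, adjusted p = 0.000166) then among the higher. The other lists then had 3 higher and 2 lower further family members, 2 and 5 apoptosome and caspase genes, 5 and 3 death receptor genes and 2 and 5 genes of the DNA damage response. Mitochondrial partners had 1 higher and 5 lower, and transcription factors and cofactors 4 and 1.

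In animal against 2D, few of these genes were called. XAF1, a binder of XIAP (1.21 against 0.0354 CPM), BIRC7 (3.39 against 0.460) and TNFSF10 (11.4 against 0.903, adjusted p = 0.00347) were higher, and SESN2 (-2.22, adjusted p = 0.00363), GADD45A (-1.05, adjusted p = 0.0111) and MYC (91.3 against 270 CPM, adjusted p = 0.0108) lower. No gene of the further family, apoptosome or mitochondrial partner lists was called.

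In animal against 3D, 2 of 10 tested further family members were higher and 3 lower, with BCL2 higher by 1.99 (adjusted p = 0.00629), BOK lower by 3.02 on the log2 scale (adjusted p = 0.00812) and the BH3-only gene BMF at 4.69 against 22.8 CPM (adjusted p = 0.00991). The BOK call ended with 3D replicate 3 alone (-1.46, adjusted p = 0.0835). CYCS (1.38, adjusted p = 0.00321) and CASP8 (1.01, adjusted p = 0.00554) were higher among 15 apoptosome and caspase genes, and 2 others were lower. TRADD (-2.02, adjusted p = 0.00139) and TNFRSF1A (-1.77, adjusted p = 0.00171) led the 3 lower death receptor genes, beside 2 higher ones. Of the DNA damage response list 2 were higher and 5 lower, led by SESN2 (-2.36, adjusted p = 0.00143) and CDKN1A (62.2 against 368 CPM, adjusted p = 0.00249), and all 3 called transcription factors or cofactors were lower, led by TRIB3 (-1.81, adjusted p = 0.00233) and DDIT3 (-1.27, adjusted p = 0.0157). The caspase inhibitor list had 2 higher and 0 lower, BIRC6 and the XIAP binder XAF1. Mitochondrial partners had 1 higher and 3 lower, led by BAG6 (-1.19, adjusted p = 0.0123). Without 3D replicates 1 and 2 the XAF1 call ended (1.12, adjusted p = 0.218) and BIRC2 was lower (-0.27, adjusted p = 0.0484), which left 1 inhibitor higher and 1 lower. The further family then had 3 higher and 4 lower, the apoptosome and caspase list 4 and 2, the death receptor list 1 and 3 and the DNA damage response list 5 and 5. Mitochondrial partners had 2 higher and 3 lower, and so had the transcription factors and cofactors.

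In heat against control no gene of the 7 lists was called with all libraries. Without heat replicate 1 each list held called genes, in a fit that called 14.0% of all tested genes higher and 14.8% lower. CASP10, an initiator caspase, was then higher by 1.16 (adjusted p = 0.0136) and CASP8, the initiator caspase of death receptors, by 0.55 (adjusted p = 0.0233). The inhibitors BIRC3 (1.06, adjusted p = 0.00575) and BIRC2 (0.56, adjusted p = 0.0214) were higher. BAG3, a partner of Hsp70 chaperones that also binds survival proteins, was higher by 3.45 (adjusted p = 0.0351), beside 3 lower genes of its list, VDAC1, MTCH2 and HUWE1, the last a ubiquitin ligase of MCL1 (-0.60, adjusted p = 0.0368). Of the DNA damage response list, BTG2 (1.14, adjusted p = 0.0162) and RRM2B (0.45, adjusted p = 0.0247) were higher and PERP was lower (-0.39, adjusted p = 0.0340). FOXO3 (0.79, adjusted p = 0.0159) and ATF3 (1.45, adjusted p = 0.0365), transcription factors of BH3-only genes, were higher and TRIB3 lower (-1.07, adjusted p = 0.0174). The death receptor list had 5 higher, CASP8 again among them, and 1 lower, TNFRSF1A (-0.64, adjusted p = 0.0222), and of the further family BOK was lower (-0.83, adjusted p = 0.0173).

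Markers of other cell types were measured beside the animal results, since in such samples the share of cells and the level per cell cannot be told apart and the removal of host reads is not stated. The summed level of 9 fibroblast markers was 163 to 461 CPM in the animal libraries against 64.5 to 69.1 in 2D and 16.3 to 112 in 3D. COL1A1 was at 141 in the animal libraries against 4.08 CPM in 2D, and THY1 was at 0 in the animal libraries. Most of the sum in 2D and 3D was LUM, with means of 51.9 and 50 CPM, which had 55.4 in the animal libraries. The sum of 6 endothelial markers was 5.79 to 16.6 CPM in animal libraries and 1.42 to 1.71 in 2D, with EMCN at 0 in both. Most of it was KDR, at 7.99 against 1.1 CPM. TEK (1.13 against 0.195) and CDH5 (0.457 against 0.0178) were also higher. VWF was lower (0.02 against 0.212) and CLDN5 was similar (0.0627 against 0.0532). The sum of 11 leukocyte markers was 170 to 220 in animal libraries, 103 to 110 in 2D, 389 to 499 in 3D, 229 to 247 in the controls and 246 to 531 with heat, most of it CD68. In animal libraries against 2D, CD74 had 21.7 against 1.61 CPM, LYZ 5.77 against 0.0354, CSF1R 0.911 against 0 and PTPRC 0.712 against 0.301. The PTPRC libraries overlapped, at 0.272 to 1.14 against 0.107 to 0.534 CPM. CD14 went the other way, at 0.103 against 0.266 CPM, and TYROBP was at 0 in the animal libraries. The part of these cells in the member levels was not tested. Of the liver markers, KRT8 and KRT18 were abundant in 2D, at 3010 and 696 CPM, and in the animal libraries, at 2180 and 741. AFP (2.00), ALB (2.36), GPC3 (0.0887) and EPCAM (0.355) were low in 2D, and in the animal libraries ALB stood at 163 CPM (90.9 to 283) and AFP at 9.27. APOA1 went the other way, at 0.12 CPM in the animal libraries against 1.38 in 2D. Among the animal libraries SERPINA1 ran from 0.301 to 47.4 CPM and KRT19 from 1.92 to 86.6.

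The genes most like a member were sought for the 3 members with the smallest adjusted p in any comparison, over the 12 libraries without the GC trend and among 9445 genes that averaged 10 CPM or more. For BBC3 they were HHLA2, CYP3A5 and CSNK1E, with Pearson r of 0.984, 0.974 and 0.969 on the log2 scale. For BIK they were C6orf89, B3GNT3 and TMTC2, at 0.962, 0.952 and 0.948, and for BAD ENTPD6, PCK2 and NUDT22, at 0.974, 0.961 and 0.958. Over all 15 libraries CYP3A5 had an r of -0.27 with BBC3, and none of these 9 genes was among the 3 most like its member. The libraries fall into groups, so these values describe shared differences between groups.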

How the data were processed

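RNA of MHCC-97H cells was sequenced in 15 libraries, 3 in each of 5 groups taken from the labels. Per the labels' protocols, mRNA was fragmented, primed with random hexamers and read from a single end. The submitters' processing notes name HISAT2 and hg19. How reads were counted (program, annotation, strand) and whether host reads were removed is not given in the sources used here. The deposited table gives raw counts of reads by gene symbol, with totals of 12605539 to 18634295, and 27 of 19143 rows carry a date in place of a symbol. The labels call the replicates biological but name no separate cultures or animals, so p-values measure the spread between these libraries, which may be technical. Every pair of libraries within a group differed by more than sampling noise (chi-square per degree of freedom at least 2.46).

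The fits were made with edgeR 4.0.16 in R 4.3.3: filterByExpr, TMM scaling and a robust quasi-likelihood fit with group as its only term, on the 9 libraries of the first round and apart from them on the 6 of the second. Adjusted p-values are Benjamini-Hochberg over all tested genes and a gene was called below 0.05. The SE was taken from the fold change and its F statistic. Levels are CPM with TMM over all 15 libraries, divided by transcript length where so stated. GC content and length are those of the longest protein-coding transcript in GENCODE 29 (99.1% of tested genes matched), of another build than hg19, so no coordinates were taken from it. The correction is an offset of splines with 5 degrees of freedom per library. Promoters are RefSeq sequences on GRCh38.p14, matched by symbol, with MCL1 and BIK unmatched. Other alternatives were DESeq2 1.42.0, RLE and upper-quartile scaling, no filter, a replicate block and leaving out single replicates, or 3D replicates 1 and 2 together, which assumes that the remaining 3D library varies as the other groups do. The edgeR script was tested on simulated data.

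The members, gene lists and markers were chosen with earlier results of these data known, so counts over them are descriptions. All 10 members are named in every comparison, then of each list up to 4 of the called genes with the smallest adjusted p. For the 3 members with the smallest adjusted p in any comparison, the 3 most correlated genes are named. Values without heat replicate 1 name list genes by the same rule within that fit. Some genes of these lists are not reported here.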

Additional observations from a re-analysis of the deposited data

How the results depend on the processing

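Of 530 refits of the 40 member values, 417 kept direction and side of the threshold, 48 lost a call, 25 gained one and 40 changed sign; the cause was not tested. BBC3, BIK and BID in 3D against 2D kept their calls under all 14 alternatives. Of 50 group levels, 16 moved by over 1 SD without TMM scaling. Depth limits BIK most, at 16 reads in its lowest library.

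Over all genes, edgeR called 1 higher and 2 lower with heat, where DESeq2 called 851 and 690 and the GC and length offset 702 and 715. In animal against 2D it called 1006 and 549, DESeq2 1430 and 1007 and the offset 1851 and 1661.

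The main counts of called members were 5 for 3D against 2D, 1 for animal against 2D, 7 for animal against 3D and 0 for heat against control. With single replicates left out they ranged from 3 to 9, 0 to 1, 3 to 9 and 0 to 3. The highest counts for the comparisons with 3D came without 3D replicate 3. There edgeR called 34.7% of all genes up and 37.5% down for 3D against 2D, and 42.6% and 34.5% for animal against 3D. The 3 with heat came without heat replicate 1, where 14.0% of all genes were up and 14.8% down. Shares of all genes called higher and lower in the same fit follow in brackets. For animal against 2D the count was 2 with DESeq2 (11.1% and 7.79%) and 3 with upper-quartile scaling (8.49% and 3.91%). It was 5 with the GC and length offset (14.3% and 12.9%). For animal against 3D it was 3 with the offset (23.5% and 17.1%). With heat it was 1 with DESeq2 (6.74% and 5.46%) and 2 with the offset (5.56% and 5.66%). It was also 2 with the offset without heat replicate 1 (14.7% and 15.2%). The offset with 3D replicates 1 and 2 or heat replicate 1 left out was added after seeing the data. As a block, the replicate number gave 4 (14.8% and 10.5%), 1 (5.49% and 2.49%), 6 (17.4% and 18.5%) and 0 (0.174% and 0.0634%) called members. The block ended the calls of MCL1 in 3D against 2D (adjusted p = 0.0513) and BAK1 in animal against 3D (adjusted p = 0.0935). It reversed BCL2L1 in 3D against 2D (-0.01), and same-numbered libraries did not deviate together (correlations -0.242 to 0.182), so the numbers do not pair them.

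Changes of sign, as log2 fold changes, were as follows. In 3D against 2D, BCL2L1 was -0.02 with upper-quartile scaling. The offset gave -0.72 for BCL2L1, -0.62 for BAX and 0.30 for BCL2L11. Without 3D replicates 1 and 2 the values were -1.06 for BCL2L1, -0.74 for BAX, -0.34 for BAK1 and 0.18 for BCL2L11. With the offset as well they were -1.14, -0.98, -0.50 and 0.38, and -0.29 for BAD. With single replicates left out, BCL2L1 ranged from -0.23 to 0.40 and BCL2L11 from -0.34 to 0.04.

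In animal against 3D, the offset gave 0.29 for BCL2L1, 0.25 for BBC3 and 0.40 for BIK. Without 3D replicates 1 and 2 the values were 0.56 for BCL2L1, 0.24 for BAK1, 0.17 for BID and 0.35 for BIK. With the offset as well they were 0.69 for BCL2L1, 0.06 for BAX, 0.45 for BAK1, 0.03 for BBC3, 0.09 for BID, 0.04 for BAD and 0.33 for BIK. With heat, leaving out single replicates gave ranges of -0.44 to 0.64 for MCL1, -0.12 to 1.01 for BAX, -0.18 to 0.47 for BID, -0.53 to 1.57 for BAD and -0.82 to 0.06 for BIK. The offset without heat replicate 1 gave -0.02 for BAX, -0.18 for BID and -0.34 for BAD.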
